A study of Mus musculus with 8 samples.

Results

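Haematopoietic stem cells (HSC) without the transcription factor E47 were compared with wild-type (WT) HSC after both had been carried through 2 rounds of transplantation. The comparison takes in the 4 arrays, of 8 in the series, that the sample titles assign to secondary recipients: 2 of E47 knockout (KO) HSC and 2 of WT HSC, with all donor cells recovered from secondary recipient mice. The remaining 4 arrays hold WT and KO cells of primary recipients and enter below only where the recipients are compared. The cells were donor-derived HSC isolated by flow cytometric sorting and lysed directly, and the cDNA made from their mRNA was amplified by a PCR of all transcripts, labelled with Cy3 and hybridised to one-colour Agilent whole mouse genome arrays. Strain, age, the number of donors and recipients, the sort markers and the deleted part of Tcf3 are not stated in the labels. Nor do they say that the 2 arrays of a genotype come from separate animals; the p-values below reflect how far these arrays differ from one another, and that spread may be technical. The WT arrays lay on 1 slide and the KO arrays on another, so that slide and genotype cannot be told apart.

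E47 and E12 are splice products of Tcf3, also called E2A. They are basic helix-loop-helix proteins that bind the E-box, a short DNA motif, as dimers, and Id proteins block them by pairing with them without binding DNA. E proteins are best known for starting the lymphoid and B cell programmes and for restraining the cell cycle of early progenitors, in part through the CDK inhibitor gene Cdkn1a. Serial transplantation is the usual test of HSC self-renewal, since only cells that keep renewing themselves rebuild blood in a second host.

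Each value is the processed spot signal of the scanner, and levels were compared on a scaled log2 axis on which 0 is the 75th percentile of the array. Of 27673 genes and unnamed probes, each represented by its brightest probe, 22875 were tested because the probe was well above background (the scanner software's own test of a spot against its surroundings) on both arrays of at least 1 genotype; 19662 were so on all 4 arrays, and of these 50.6% lay below the median gene of all tested. Spots well above background made up 80.2% and 78.0% of WT replicates 1 and 2, and 90.7% and 74.5% of KO replicates 1 and 2. Of 14 marker genes of HSC, 13 were well above background on all 4 arrays. The list includes Flt3 and Cd48, which are low on long-term HSC. Its summed scaled signal came to 83.6 and 79.0 in WT and 54.5 and 81.7 in KO. On KO replicate 2 the brightest members were Meis1, Gata2 and Hlf, at signals of 16123, 7715 and 6992. Ly6a read 498 there, Kit 59.6, Procr 26.2 and Slamf1 25.8, each below both WT arrays, so the sum does not speak for each marker. The arrays did not separate by genotype: across the 19662 genes, which are not independent replicates, KO replicate 1 correlated with the WT arrays at r = 0.807 and 0.798 and with KO replicate 2 at 0.702, while the WT arrays correlated with each other at 0.787. KO replicate 2 stood apart in both directions. It read at least 3 log2 units below each of the other arrays for 1332 genes (5.82%), against 314 for WT replicate 1, 278 for WT replicate 2 and 44 for KO replicate 1. By the same margin it read above each of the others for 577 genes (2.52%), against 163, 232 and 273 for those arrays. For many of the changes below, the value without that array is therefore given as well, and list medians are followed by the values without named arrays or by the range of the values with any 1 of the 4 arrays left out. Other probes of a gene are quoted only where they passed the same filter, and not for every gene that has them. A lower signal in such bulk samples cannot separate fewer cells that express a gene from less RNA in each cell.

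Tcf3 itself was measured clearly on every array. The brighter of its probes (chromosome 10, 79816347 to 79816406, mm8) read 1778 and 1773 in WT and 1664 and 167 in KO, so that KO replicate 1 stood at the WT signal and only KO replicate 2 lay below it. The second probe, at 79813023 to 79813082, read 38.6 and 394 in WT and 496 and 149 in KO and put the change at 1.25. It is not known here if a probe falls inside the deletion, and E12 is made from the same gene, so these readings do not test the genotype.

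No gene passed the test in limma after Benjamini-Hochberg adjustment: 0 of 22875 (0%) had an adjusted p under 0.05, and the lowest adjusted p was 0.497. An unadjusted p under 0.05 was reached by 1767 genes (7.72%), 1220 of them higher in KO (5.33% of those tested) and 547 lower (2.39%). Both KO arrays lay above both WT arrays for 7716 genes (33.7%), and below both for 2900 (12.7%). With 2 arrays against 2, an exact permutation test of a single gene has 6 arrangements and a smallest two-sided p of 0.333, so it can call nothing. The excess of higher genes moved with the scaling: 69.0% of the genes of unadjusted p under 0.05 were higher in KO on the 75th percentile scale, 48.3% when arrays were scaled to their median and 46.2% after quantile normalization. Fits that leave out 1 array take their spread from the 2 arrays of the other genotype alone, so only effect sizes are given for them. The median gene stood 0.45 log2 units higher in KO, and every change below is the log2 difference KO minus WT relative to that median gene, with the standard error of the limma fit, whereas p-values refer to the difference before this centring. Bounds given below as at least a certain fold are also taken from the scaled signals before this centring. The changes also depended on level. With the genes split by mean level into 4 groups of equal size, the median change from the dimmest to the brightest group was 0.51, 0.05, -0.10 and -0.27, and 36.6% of the genes lay below the median gene in the dimmest group against 61.4% in the brightest. Both KO arrays lay above both WT arrays for 44.3% of the dimmest group and 27.1% of the brightest, and below both for 7.19% and 18.5%. The shares of all genes quoted beside lists below are not matched for level. Median levels of the glycolysis, proteasome, respiratory chain, antioxidant, interferon response and E protein lists lay in the brightest group. So did those of the HSC transcription factor, TCA cycle, cytosolic ribosomal protein, chaperone and mitochondrial biogenesis lists. For all of these lists, 61.4% is the closer share of all genes below the median gene.

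**Figure D1:**
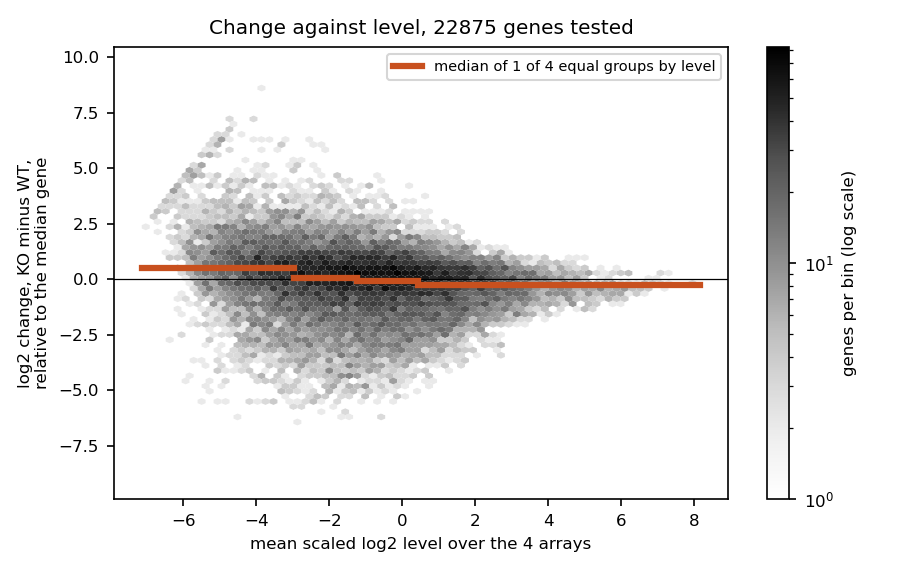
Log2 change of KO against WT relative to the median gene (y axis) against the mean scaled log2 level over the 4 arrays (x axis); shading counts genes per bin on a log scale and the orange lines are the medians of 4 equal groups, by level, of the 22875 genes tested. The medians step down from 0.51 in the dimmest group to -0.27 in the brightest, and single genes scatter far beyond those medians.

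Several of the genes of lowest p in the higher direction were near or below the background in WT and clearly measured on both KO arrays. Lrp6, the co-receptor through which Frizzled receptors pass on the Wnt signal (probe on chromosome 6, 134416031 to 134416090, mm8), read 4.41 and 2.39 in WT and 442 and 403 in KO. It was not well above background on either WT array and was at least 58.8-fold higher in KO, a bound that sets the KO mean against the lowest scaled signal of any probe well above background on each WT array, or the probe's own if that was higher (change 7.13, SE 0.69). Acvr2a, a receptor for activins, read 4.34 and 7.81 in WT and 878 and 326 in KO, at least 74.6-fold higher. Another of its probes, measured on both WT arrays and 1 KO array, gave -3.70. The zinc finger gene Zfp277 was at least 68.6-fold higher in KO, the F-box gene Fbxo24 at least 64.9-fold and the photoreceptor homeobox gene Crx at least 31.9-fold. These genes entered the test through the KO arrays alone, and their choice by lowest p favours groups that lie far apart, so their separation is a description.

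Further genes of lowest p had a measured WT signal on at least 1 array. The chemokine receptor gene Ccr1l1 read 24.5 and 12.7 in WT and 1134 and 986 in KO (change 6.02, SE 0.69). Csrnp3 read 14.9 and 5.94 against 773 and 842, and Patj, which encodes a scaffold of epithelial tight junctions, 20.7 and 9.85 against 867 and 956. Col17a1, a collagen of hemidesmosomes, read 14.1 and 11.96 against 498 and 353. Arhgef39, a guanine nucleotide exchange factor, read 23.7 and 13.6 in WT and 2272 and 6936 in KO, the widest difference of these genes (change 7.90, SE 1.02), while its other probe gave 0.33. Mamdc2, a gene of the extracellular matrix, read 62.2 and 25.7 against 1573 and 1419. Tek completes these 12 genes and is described with the HSC genes.

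In the other direction the genes of lowest p were well measured in WT and dim on the KO arrays. Some were near the background there, while Gdf3, Glcci1 and Prkaca were well above it on both KO arrays. Nars2, the mitochondrial asparaginyl-tRNA synthetase, read 535 and 1198 in WT and 6.28 and 1.69 in KO, at least 64.2-fold lower. Znfx1, a helicase of antiviral defence, read 664 and 814 in WT and 9.14 and 1.91 in KO, at least 58.9-fold lower. The lipid kinase gene Pi4k2a was at least 10.02-fold lower, Gdap2 at least 9.47-fold, the transcription factor gene Sp4 at least 6.78-fold and Nab2, a corepressor of EGR proteins, at least 4.27-fold. Gdf3, a ligand of the TGF-beta family, was measured on all 4 arrays and read 769.8 and 1165 in WT and 22.9 and 13.5 in KO (change -5.64, SE 0.69). Prkaca, the catalytic subunit of protein kinase A, read 1712 and 985 in WT and 66.7 and 29.7 in KO (change -4.76, SE 0.68). Glcci1 read 875 and 946 against 35.1 and 21.4. Letm2 (-7.67), the tRNA deaminase subunit gene Adat2 (-5.43) and the secretory GTPase gene Rab27b (-5.50) complete the 12. These genes too were chosen by lowest p, and those given a bound entered the test through the WT arrays alone.

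**Figure D2:**
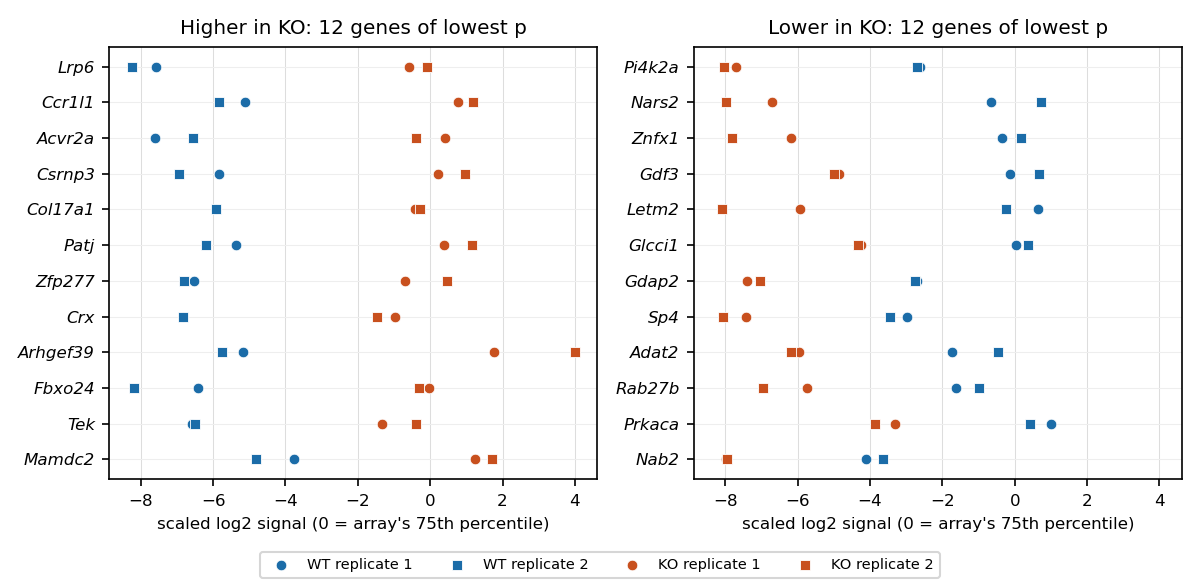
Scaled log2 signal (x axis, 0 is the array's 75th percentile) of the 12 genes of lowest p in each direction (y axis); blue points are WT and orange points KO, circles replicate 1 and squares replicate 2. In every gene shown the orange and blue points form separate groups, which the choice by lowest p favours, with the lower group mostly below a level of -4; where a symbol is not seen, the replicates coincide.

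Among genes well above background on all 4 arrays, the widest gaps between the genotypes can be read without a bound. Besides Arhgef39, Ccr1l1 and Mamdc2, the wide gaps toward KO belonged to Upf3a, a factor of nonsense-mediated decay, which read 67.04 and 32.9 in WT and 2159 and 4509.8 in KO. Fgfr2, a receptor for fibroblast growth factors, read 20.4 and 21.1 against 572 and 2405, and Acad8, which acts in valine breakdown, 20.2 and 21.1 against 615 and 872. Tcp11x2 (5.88), Rnf170 (5.28), the interferon gene Ifna4 (4.65) and Oma1, a protease of the inner mitochondrial membrane (5.89), were the others. The wide gaps toward WT, besides those of Gdf3, Glcci1 and Prkaca, included Mcu, the pore of the mitochondrial calcium uniporter, at 2291 and 2455 in WT and 139.7 and 37.5 in KO. Wdr83 read 4681 and 3071 against 207 and 80.4 and Sccpdh 3754 and 1249.8 against 39.3 and 47.2. Ankrd16 (-5.62), Rell2 (-5.48), Ap3m2 of the AP-3 adaptor (-5.26) and the lipid transfer gene Vps13c (-5.90) complete that group. Another probe of Fgfr2, also measured on all 4 arrays, gave 0.81.

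Many genes carry more than 1 probe, which gives a reading of the same transcript by another sequence. Across 6995 genes with a second tested probe, the changes on the brightest and on the second probe correlated at r = 0.202 (rho 0.220), and 59.6% had the same sign. These genes share the arrays and are not replicates, and the p-values here come from a limma fit of every probe. Of the 319 whose brightest probe had an unadjusted p under 0.05, 214 (67.1%) kept the sign on the second. Both probes had an unadjusted p under 0.05 in the same direction for 35 genes and in opposite directions for 6. The following, with both probes well above background on all 4 arrays, were picked from those 35 after their values had been seen and because both probes had the same sign. Cma1, a mast cell protease, stood at 1.91 and 1.83. Lower in KO on both probes were Wdr83 (-4.77 and -4.62) and Timm13, a chaperone of mitochondrial protein import (-3.35 and -3.79). Others that met the same condition were Rhoq, St6galnac6, Socs6 and Ptprk, higher in KO, and Pon3, Fmnl1 and Ptpn12, lower.

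**Figure D3:**
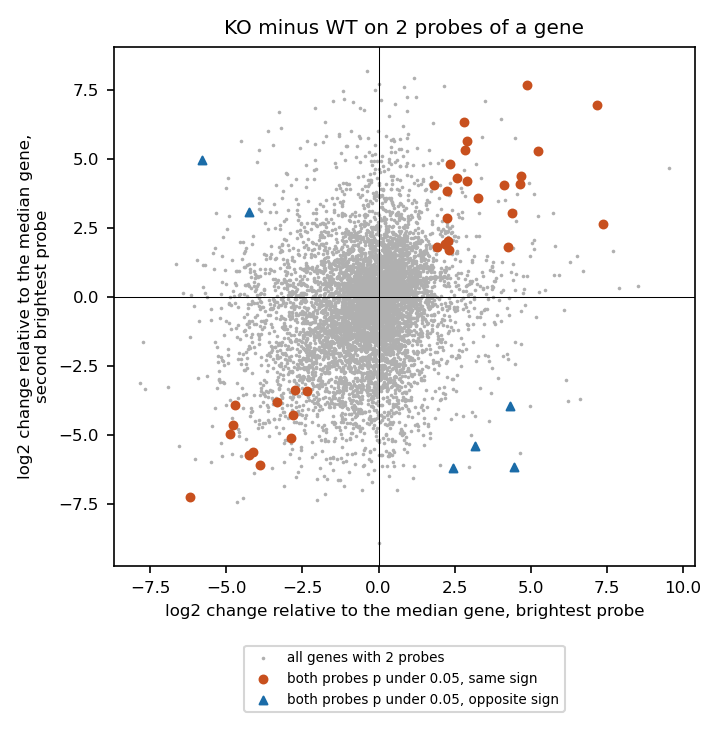
Log2 change of KO against WT relative to the median gene on the brightest probe (x axis) and on the second brightest probe (y axis) of 6995 genes; orange points are the 35 genes with an unadjusted limma p under 0.05 on both probes and the same sign, blue triangles the 6 with opposite signs. The cloud of all genes has a weak slope, r = 0.202.

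Tek, which encodes Tie2, the angiopoietin receptor that holds HSC in their niche, was the HSC surface gene of lowest p. Its probe (chromosome 4, 94233814 to 94233873, mm8) read 8.78 and 8.09 in WT and 262 and 332 in KO. It was not well above background on either WT array and was at least 41.1-fold higher in KO (change 5.24, SE 0.71); the second probe, also not well above background in WT, was at least 22.4-fold higher. The opposite was read for Ly6a, which encodes Sca-1, the antigen that together with Kit defines the HSC gate in many mouse strains. Ly6a read 19812 and 10665 in WT and 3242 and 498 in KO, both KO arrays below both WT arrays (change -3.41, SE 0.98), and stood at -2.30 without KO replicate 2. Procr, the endothelial protein C receptor EPCR of long-term HSC, read 15214 and 10849 in WT and 5064 and 26.2 in KO, and Slamf1, which encodes CD150, 2432 and 4217 in WT and 1604 and 25.8 in KO. For both genes KO replicate 1 lay below the WT arrays by less than KO replicate 2, which was far lower. Their changes of -5.03 (SE 2.498) and -3.87 (SE 1.98) came to -1.48 and -1.13 without that array.

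The promoters of 3 of these genes are shown because E proteins bind E-boxes; they are the 250 bases before the start of the RefSeq transcript in GRCm38.p6, plus strand, with every CANNTG in capitals. Tek lies at chr4:94739039-94739288, Slamf1 at chr1:171766882-171767131 and Procr at chr2:155750967-155751216.
Tek: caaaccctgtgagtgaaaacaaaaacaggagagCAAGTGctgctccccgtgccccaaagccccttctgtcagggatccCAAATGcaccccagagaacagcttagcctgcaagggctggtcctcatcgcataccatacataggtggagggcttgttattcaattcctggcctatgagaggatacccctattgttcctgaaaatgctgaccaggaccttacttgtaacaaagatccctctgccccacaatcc
Slamf1: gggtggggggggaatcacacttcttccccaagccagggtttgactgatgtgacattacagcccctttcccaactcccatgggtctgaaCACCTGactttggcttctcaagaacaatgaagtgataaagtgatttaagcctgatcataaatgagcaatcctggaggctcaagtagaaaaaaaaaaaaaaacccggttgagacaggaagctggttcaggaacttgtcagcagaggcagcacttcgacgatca
Procr: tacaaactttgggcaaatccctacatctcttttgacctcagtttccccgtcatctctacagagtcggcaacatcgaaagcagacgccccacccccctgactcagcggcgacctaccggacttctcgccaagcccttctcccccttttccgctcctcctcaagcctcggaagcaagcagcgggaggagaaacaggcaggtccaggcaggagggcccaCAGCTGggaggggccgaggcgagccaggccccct
The Tek window holds CAAGTG 217 bases and CAAATG 172 bases before the start, the Slamf1 window CACCTG 162 bases before it and the Procr window CAGCTG 34 bases before it. Of 32851 RefSeq windows of this length, 66.2% held a CANNTG, searched on both strands. The motif CAGGTG, or CACCTG as it reads on the opposite strand, stood in 17.2% of them. CAGCTG, which reads the same on both strands, stood in 13%. Every match of these is also a match of the wider motif. Among the genes of lowest p or widest gap that matched the promoter table, CAGGTG or CACCTG stood in 2 of 18 windows for those higher in KO and in 0 of 16 for those lower. A match of letters is a description and shows no binding.

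Over the whole list of 25 HSC surface and niche genes, all tested, 16 lay below the median gene, where 50% of all genes do, with a median change of -0.37 (range -0.66 to -0.29). Both KO arrays lay above both WT arrays for 8 members (32%) and below both for 7 (28%), against 33.7% and 12.7% of all genes. At an unadjusted p under 0.05 were Tek and Bmpr1a, higher in KO, and Ly6a, lower. Bmpr1a, a receptor for bone morphogenetic proteins, was not well above background in WT and at least 27.1-fold higher in KO. Tek and Bmpr1a entered the test through the KO arrays alone, so their separation is a description. Kit, the receptor for stem cell factor, read 1657 and 514 in WT and 1783 and 59.6 in KO; its change of -1.39 turned to 0.81 without KO replicate 2. Flt3, the receptor that marks the step from HSC to multipotent progenitors, read 98.4 and 109.5 in WT and 293 and 163 in KO (change 1.18, SE 0.64). Cxcr4, the receptor for the niche chemokine CXCL12, read 107 and 92.1 against 281 and 147 (change 1.14), and for both of these the KO arrays lay above the WT arrays. Cd34 overlapped between the genotypes, at 1097 and 242 and 1243 and 35.2, and turned from -1.19 to 1.13 without KO replicate 2.

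Of 26 HSC transcription factors, all well above background on all 4 arrays, 17 lay below the median gene (median change -0.58, range -0.67 to -0.34) and none had an unadjusted p under 0.05. Hlf, a factor of HSC identity, read 2160.1 and 3933 in WT and 4264 and 6992 in KO, both KO arrays above both WT arrays on the scaled levels (change 1.02, SE 0.87, and 0.41 without KO replicate 2). Mecom, whose product EVI1 sustains long-term HSC, read 2020.2 and 1979.7 against 919.9 and 130.3 (change -2.42, SE 0.99, and -1.26 without KO replicate 2). Nfe2, a factor of megakaryocyte and erythroid maturation, read 19672 and 5553 in WT and 3122 and 86.03 in KO (change -4.22, SE 1.79, and -1.88 without KO replicate 2). Mecom and Nfe2 thus lay lower on both KO arrays, most on replicate 2. Gfi1, a repressor that limits HSC cycling, had a change of -2.67 (SE 1.09, and -1.32 without KO replicate 2). The other probes of Mecom gave -0.80 and -3.12. Hoxa9 and Bmi1, the Polycomb gene needed for self-renewal, were close to the median gene, at 0.00 and 0.22, and so without a fixed sign: Hoxa9 stood at -0.35 without WT replicate 2 and -0.05 without KO replicate 1, and Bmi1 at -0.01 without KO replicate 2. Meis1 stood at 0.71 and at -0.19 without WT replicate 1 and 0.05 without KO replicate 2. With the probes of each gene averaged, Bmi1 stood at -0.74 and Meis1 at -0.34.

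**Figure D4:**
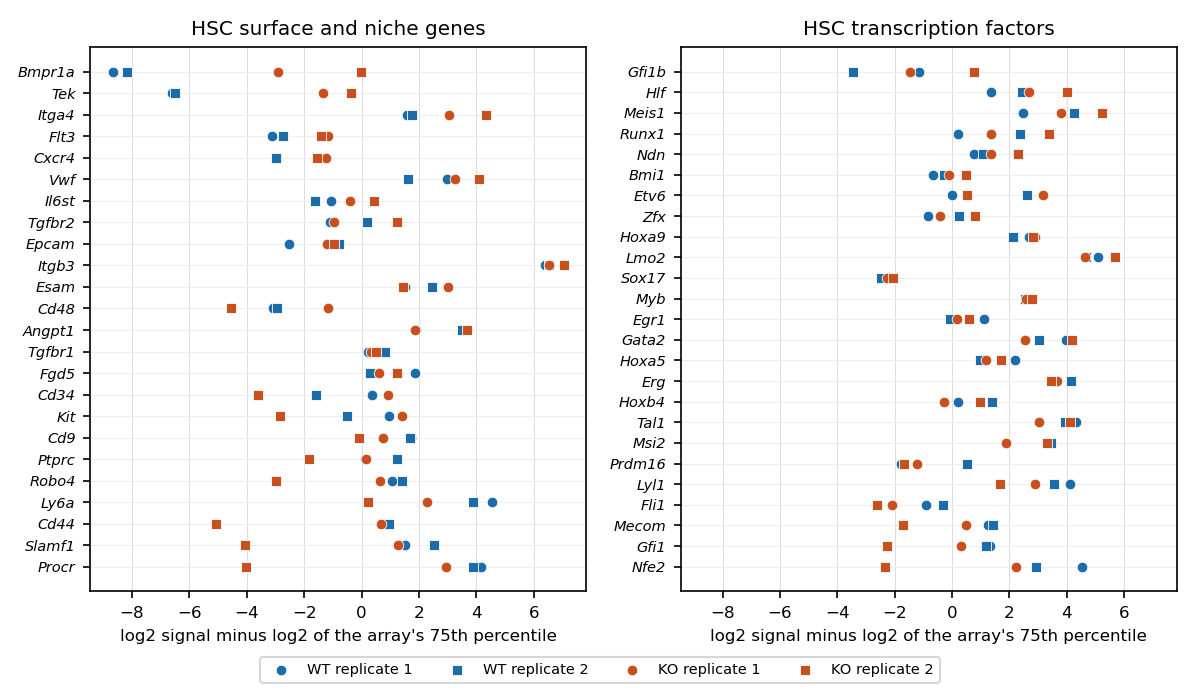
Scaled log2 signal (x axis, 0 is the array's 75th percentile) of 24 HSC surface and niche genes (left) and 25 HSC transcription factors (right), ordered from the highest to the lowest change; blue is WT and orange KO, circles replicate 1 and squares replicate 2. Bmpr1a and Tek separate at the top with WT near the background, and at the bottom (Procr, Slamf1, Cd44, Nfe2) the orange square of KO replicate 2 lies far to the left of the other points.

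E proteins, Id proteins and their partners had the lowest median of the 32 lists in the reported fit, with 11 of 14 tested members below the median gene and a median change of -1.27. The count and the median include Tcf3 itself (change -1.64), the gene of the knockout. No member had an unadjusted p under 0.05, 4 (28.6%) lay below WT on both KO arrays and 0 above, against 12.7% and 33.7% of all genes. The median was -0.73 without KO replicate 1 and -0.62 without KO replicate 2. Proteasome subunits then stood lower, at -1.29 and -0.84, and also after quantile normalization (-1.38 against -1.16), so the rank depended on the setting. Tcf4, which encodes the related E protein E2-2, read 2339 and 5232 in WT and 1744 and 38.5 in KO (change -3.64, SE 1.87, and -1.14 without KO replicate 2), and its other probes gave -3.42 and 0.64. Tcf12, which encodes HEB, overlapped between the genotypes at 345 and 1106 and 461 and 349 (change -0.51) and turned to 0.36 without WT replicate 2. Id1 and Id3, inhibitors of E proteins, overlapped as well, with changes of -0.44 (SE 1.07) and 0.27 (SE 0.93); Id1 turned to 0.73 without WT replicate 2, and Id3 to -0.19 and -0.53 without WT replicate 1 and without KO replicate 2.

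Genes of lymphoid priming and of the B lineage, the programmes that E2A drives, had fewer members below the median gene than above it. Of 21 lymphoid priming genes 9 lay below (median 0.14, range 0.20 to 0.38), and of 19 B lineage genes and E2A targets 6 did (median 0.23, range 0.05 to 0.39). Above WT on both KO arrays were 9 members of each list (42.9% and 47.4%), against 33.7% of all genes. Rag2, a subunit of the V(D)J recombinase, read 7.07 and 3.13 in WT and 30.8 and 26.3 in KO; it was not well above background in WT and at least 3.97-fold higher in KO. Vpreb1, part of the surrogate light chain, read 61.4 and 58.8 against 275 and 94.3 (change 1.53, SE 0.71), and both KO arrays lay above the WT arrays. Il7r, the interleukin-7 receptor, read 19.1 and 18.2 in WT and 209 and 20.2 in KO, so that its change of 1.91 came from KO replicate 1 (3.35 without replicate 2, 0.50 without replicate 1). Bcl11b, a factor of T cell commitment, lay lower on both KO arrays, at 696 and 483 against 134 and 40.1 (change -2.87, SE 0.74). Rag2, Vpreb1 and Bcl11b were the members of these lists with an unadjusted p under 0.05. Dntt, an early lymphoid enzyme, stood at 0.48 (SE 0.68, and 0.29 without KO replicate 2), and the B cell factors Ebf1 and Pax5 at 0.06 and -0.02, values without a fixed sign when an array was left out.

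Markers of mature blood cells were also measured, since a sort can carry other cells along. T and NK cell markers had 3 of 13 members below the median gene (median 0.44, range 0.10 to 0.56) and none at an unadjusted p under 0.05. A separate panel of 9 such markers, tested or not, had a summed scaled signal of 4.89 and 4.77 in WT and 6.24 and 19.8 in KO. Cd3g, a chain of the T cell receptor complex, read 124 and 127 in WT and 167 and 3319 in KO, high on KO replicate 2 alone. Cd3d of the same list lay lower on both KO arrays than on both WT arrays (change -1.20). Ncr1 stood at 1.28, so the sum does not speak for each marker of the panel. Zap70, in the list but not in the panel, stood at -1.06 (-0.01 without WT replicate 2). For granulocyte and monocyte markers 8 of 20 lay below the median gene (median 0.16, range 0.25 to 0.70). The summed scaled signal of a separate panel of 11 such markers came to 16.4 and 10.7 in WT and 15.6 and 29.1 in KO. Cd68, a macrophage lysosomal protein, read 309 and 37.99 in WT and 1514 and 3943 in KO (change 4.61, SE 1.35), while the primary granule genes Mpo and Elane stood at 0.04 and 1.34; Elane came to 0.15 without KO replicate 2, and Mpo turned to -0.44 without WT replicate 2 and -0.11 without KO replicate 2. Cd68 was the member of that list with an unadjusted p under 0.05. Erythroid genes had a median of 0.12 (7 of 16 below the median gene), which turned to -0.16 without WT replicate 2 and -0.30 without KO replicate 1. Mast cell and basophil markers had a median of 0.29 (5 of 10 below, with Cma1 at an unadjusted p under 0.05; range 0.14 to 0.99), which turned to -0.16 over the 8 members well above background on every array. The share of these markers in the differences of other genes was not tested.

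Megakaryocyte genes, a programme that HSC share in part, had 9 of 14 members below the median gene and a median of -0.65 (range -0.71 to -0.06). Over the 10 members well above background on all 4 arrays, 5 lay below and the median turned to 0.07. Ppbp, a platelet chemokine named after its values were seen, read 164 and 442 in WT and 15.4 and 1.91 in KO, and Rab27b of platelet granules 276 and 368 and 12.3 and 3.47; they were the members at an unadjusted p under 0.05. Vwf and Itga2b, which mark platelet-primed HSC, stood at 0.92 (SE 0.83, and 0.57 without KO replicate 2) and 0.78 (SE 0.72), and the other probes of Vwf gave -1.61 and -0.02. The median of the list was -0.06 without WT replicate 1.

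Cell cycle genes were read in 4 lists. Cdkn1a, which encodes p21 and is an E47 target in progenitors, read 447 and 294 in WT and 290.3 and 325 in KO, overlapping between the genotypes (change -0.13, SE 0.70); it turned to 0.06 without WT replicate 1 and 0.23 without KO replicate 1. The other CDK inhibitors differed in direction: Cdkn1c (p57), a keeper of HSC quiescence, stood at -2.03 (SE 1.08, and -0.69 without KO replicate 2), Cdkn1b (p27) at 0.23 (SE 0.64) and Cdkn2c (p18) at 0.81 (SE 0.68). Rb1, the retinoblastoma gene, read 400.4 and 336 in WT and 1276 and 5545 in KO (change 2.97, SE 1.14, and 1.66 without KO replicate 2), but its other probe gave -0.67. The list of 9 CDK inhibitors and Rb family genes had a median of 0.60 (range 0.16 to 0.36).

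Of 17 drivers of the G1 phase 14 were below the median gene, with a median change of -1.01 (-0.40 without KO replicate 2). The median scaled level of the list overlapped between the genotypes, at -0.16 and 0.66 on the WT arrays and 0.37 and -0.57 on the KO arrays. Both KO arrays lay below both WT arrays for 4 members (23.5%) and above for 2 (11.8%), against 12.7% and 33.7% of all genes. Ccnd2, the D-type cyclin of blood progenitors, read 20403 and 14191 in WT and 4104 and 3105 in KO (change -2.14, SE 0.64). Its KO arrays were close to each other, below both WT arrays, and its other probes gave -0.68 and -2.97. Ccnd1 stood at -1.47 (SE 0.93; -0.51 without KO replicate 1), Myc at -1.12 (SE 0.80; -0.48 without KO replicate 1) and Mycn at -0.99 (SE 0.70), each overlapping between the genotypes. Cdk2, the kinase of S phase entry, read 757 and 764 in WT and 114 and 12.2 in KO (change -4.24, SE 1.103), and E2f3 had a change of -4.32 (SE 1.31). Cdk2 and E2f3 were the members with an unadjusted p under 0.05, and other probes gave -0.93 for Cdk2 and 1.18 and -0.57 for E2f3, while a further E2f3 probe was well above background on the WT arrays alone.

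DNA replication genes went both ways. Of 34 members 23 lay below the median gene (median -0.62, and -0.31 without KO replicate 2 and -1.54 without WT replicate 2). Above WT on both KO arrays were 7 (20.6%) and below 7 (20.6%), against 33.7% and 12.7% of all genes. Mcm3 of the replicative helicase read 159 and 278 in WT and 1433 and 3069 in KO (change 3.43, SE 0.94), and Cdc45, which joins that helicase, 229.5 and 58.2 against 619 and 926 (change 2.82, SE 0.97). Pold1, the catalytic subunit of DNA polymerase delta, lay the other way, at 13414 and 4140.3 in WT and 485 and 1072 in KO (change -3.26, SE 1.02, other probe -2.45). These 3 were the members with an unadjusted p under 0.05. The other probe of Mcm3 gave 0.35. Mitosis genes had 14 of 27 members below the median gene and a median of -0.11, which turned to 0.60 without WT replicate 1, 0.84 without KO replicate 2 and also turned after quantile normalization; 10 members (37.0%) lay above WT on both KO arrays, near the 33.7% of all genes. Nusap1 of the spindle had the change of lowest p there, 1.94 (SE 0.68), with -1.50 on its other probe, and Mki67, the proliferation antigen, stood at 0.43 (SE 0.72; 0.05 without KO replicate 1) and at -2.00 on its other probe.

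Imprinted genes tied to HSC quiescence had a median of 0.29 over 15 members (range -0.26 to 0.52), which turned to -0.26 without WT replicate 1. Slc22a3, an organic cation transporter, read 146 and 39.4 in WT and 1324 and 2601 in KO (change 4.72, SE 1.02) and was the member with an unadjusted p under 0.05. Dcn, which encodes the matrix proteoglycan decorin, read 89.8 and 138 against 354 and 4414, highest on KO replicate 2. Ndn, a p53 target of quiescent HSC, stood at 0.47 (SE 0.72, and 0.06 without KO replicate 2).

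Among DNA repair genes 24 of 36 lay below the median gene (median -0.70, range -1.25 to -0.36). Rad52 of homologous recombination read 3089 and 4630.2 in WT and 216 and 27.3 in KO (change -5.51, SE 1.07). The damage kinase gene Atm stood at 2.95 (SE 2.16), at 0.42 without KO replicate 2 and at 0.99 with its probes averaged. At an unadjusted p under 0.05 were Rad52 and Xrcc3, lower, and Prkdc, higher, where Xrcc3 and Prkdc were named after their values were seen. The genes of p53 and its targets had 13 of 20 below the median gene (median -0.29, range -0.47 to -0.29) and the Bcl2 family 9 of 14 (median -0.28, range -0.62 to -0.32), with 0 members of either at an unadjusted p under 0.05. Trp53 stood at 0.10 (SE 0.81), the anti-apoptotic Bcl2 at -0.24 (SE 0.64) and Mcl1 at -0.99 (SE 0.74). Trp53 turned to -0.53 without WT replicate 1 and -0.22 without KO replicate 2. With the probes of each gene averaged, Bcl2 stood at -2.44 and Trp53 at -0.96.

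Each list of energy metabolism had more members below the median gene than above it, without any member passing the adjusted test. Of 73 genes of the respiratory chain and ATP synthase 57 lay below the median gene (median -0.86), and both KO arrays lay below both WT arrays for 19 (26.03%, against 12.7% of all genes) and above for 9 (12.3%, against 33.7%). KO replicate 2 alone was at least 3 log2 units below the other arrays for 11 of them, and without it the median was -0.46. Ndufa3 of complex I read 9771 and 8355 in WT and 3447 and 68.9 in KO, with 0.55 on its other probe, and Atp5a1 of ATP synthase 9823 and 12997 and 8266 and 68.5; in both the low value was that of KO replicate 2. Ndufa13 of complex I, named after its values were seen, was low on both KO arrays, at 14735 and 6335 in WT and 889 and 882 in KO. Atp5c1, the gamma subunit of ATP synthase, lay the other way at 125 and 381 and 1305 and 876 (change 2.40, SE 0.89). Ndufa13 and Atp5c1 were the members with an unadjusted p under 0.05.

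Glycolysis had 16 of 19 members below the median gene and a median of -1.14 (range -0.99 to -0.84), with 8 (42.1%) below WT on both KO arrays and 3 (15.8%) above, against 12.7% and 33.7% of all genes. Pkm, pyruvate kinase, read 15685 and 13294 in WT and 6909 and 1954 in KO (change -1.86, SE 0.75, and -1.20 without KO replicate 2), with -3.03 and -1.28 on its other probes. Hk2, a hexokinase, read 796 and 309 against 224 and 29.4, and Gpi1, which acts after it, 13217 and 10839 against 7116 and 268; Ldha stood at -0.46 (SE 0.63; -0.25 without KO replicate 2) and at 0.93 on its other probe. In the TCA cycle 17 of 25 lay below the median gene (median -0.51, range -0.63 to -0.45). Dld, the shared E3 subunit of the pyruvate and oxoglutarate dehydrogenases, read 2268 and 4438 in WT and 392 and 66.8 in KO (change -4.18, SE 1.005), both KO arrays lay well below, and its other probes gave -3.33 and -3.99. Idh2, mitochondrial isocitrate dehydrogenase, read 5499 and 8171 against 2309 and 8.31, and its change of -5.49 came to -1.67 without KO replicate 2. Dld was the member of that list with an unadjusted p under 0.05.

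Fatty acid oxidation had 16 of 24 members below the median gene (median -0.48, range -0.78 to -0.19). At an unadjusted p under 0.05 were Decr1, an enzyme of unsaturated fatty acids that was at least 21.98-fold lower in KO, and Ehhadh, a peroxisomal enzyme, which read 9.08 and 19.7 in WT and 604 and 1330.4 in KO; both were named after their values were seen. Hadha of the mitochondrial trifunctional protein read 852 and 794 against 316 and 44.97 (change -2.68, SE 0.99, and -1.52 without KO replicate 2). Mitochondrial ribosomal proteins had 54 of 76 below the median gene and a median of -0.86, which was -0.49 without KO replicate 2 and -1.36 without WT replicate 2, and KO replicate 2 alone was low for 11. Mrpl41 stood at 2.49 (SE 0.83), against the direction of the list; with Mrpl39, lower in KO and named after its values were seen, it was a member at an unadjusted p under 0.05. Mitochondrial biogenesis and dynamics had a median of -0.37 (16 of 28 below the median gene; range -0.55 to -0.07), with Tfam, which maintains mitochondrial DNA, at 0.29 (SE 0.73; -0.17 without KO replicate 2).

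**Figure D5:**
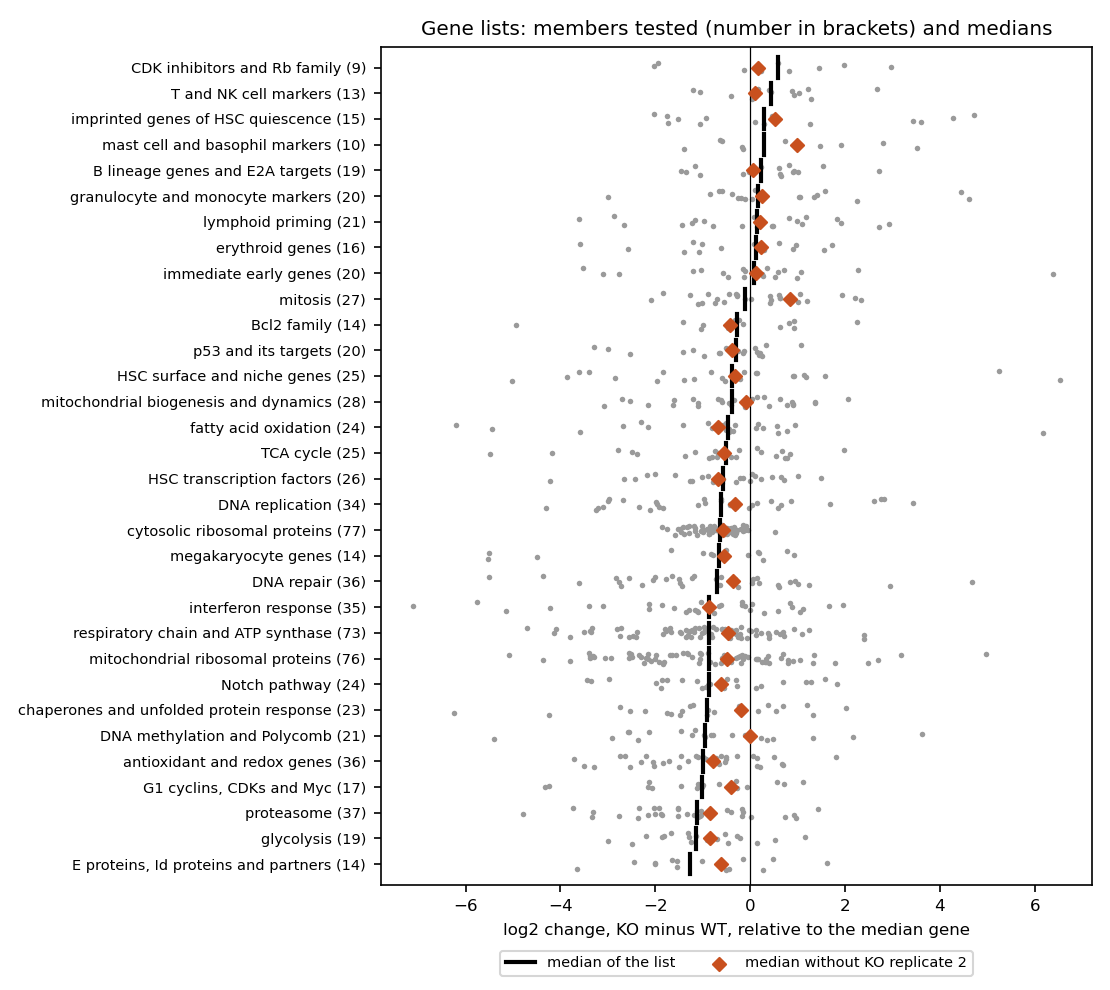
Log2 change of KO against WT relative to the median gene (x axis) for the tested members of the 32 gene lists (y axis, number tested in brackets); grey points are members, black bars the list medians and orange diamonds the medians without KO replicate 2. Medians run from -1.27 (E proteins, Id proteins and partners) to 0.60 (CDK inhibitors and Rb family), and the diamonds of DNA methylation and Polycomb (-0.01) and of mitosis (0.84) lie far from their bars.

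Cytosolic ribosomal proteins, the brightest of the lists, had 76 of 77 members below the median gene, with a narrow spread around a median of -0.63 (range -0.78 to -0.57). The brightest of the 4 level groups of all genes had a median of -0.27. On the scaled levels, before centring, their median stood at 5.92 and 5.82 on the WT arrays against 5.50 and 5.67 on the KO arrays. Proteasome subunits had 32 of 37 below the median gene (median -1.13, -0.84 without KO replicate 2), 12 (32.4%) below WT on both KO arrays and 3 (8.11%) above, against 12.7% and 33.7% of all genes. Psmb4 read 8250.0 and 3749.6 in WT and 2146 and 16.2 in KO and Psma5 5119.7 and 1927 against 3084 and 15.6, with KO replicate 2 near the background in both. Neither list had a member at an unadjusted p under 0.05.

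Antioxidant and redox genes had 28 of 36 members below the median gene (median -0.99, range -1.26 to -0.77), 8 (22.2%) below WT on both KO arrays and 3 (8.33%) above, against 12.7% and 33.7% of all genes, and 0 at an unadjusted p under 0.05. In the brightest level group of all genes, where the median level of this list lay, 18.5% were below and 27.1% above. Prdx6, a peroxiredoxin, read 6382 and 9408 in WT and 2109 and 141 in KO (change -3.72, SE 1.33, and -2.01 without KO replicate 2), while its other probes gave -0.68, 1.42 and 1.02. Nfe2l2, which encodes the antioxidant regulator NRF2, stood at -1.30 (SE 0.68), with both KO arrays below both WT arrays. Chaperones and genes of the unfolded protein response had 16 of 23 below (median -0.90), and the median was -0.19 without KO replicate 2. Dnajb9, a chaperone of the endoplasmic reticulum, read 540.2 and 1342 in WT and 159 and 11.01 in KO (change -4.24, SE 1.39, and -2.56 without KO replicate 2), and its other probes gave -4.31 and -4.05. Xbp1, the spliced regulator of that response, read 6489 and 955 in WT and 390.5 and 2.37 in KO, and the sensor target Hspa5 stood at 0.16 (SE 0.67; -0.08 without WT replicate 1 and -0.10 without KO replicate 1).

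Interferon response genes had 26 of 35 members below the median gene and a median of -0.86, which was -0.87 without KO replicate 2 and -0.55 without WT replicate 1. Both KO arrays lay below both WT arrays for 11 (31.4%) and above for 5 (14.3%), against 12.7% and 33.7% of all genes. Samd9l, a growth restraint of progenitors, read 592 and 1612 in WT and 123 and 19.4 in KO (change -4.21, SE 1.11). Gbp4, an interferon-induced GTPase named after its values were seen, read 601 and 5053 in WT and 29.7 and 4.62 in KO. Together with Ly6a they were the members with an unadjusted p under 0.05, all lower in KO. Irf7, an interferon regulatory factor, lay the other way at 0.83 (SE 1.03; -0.28 without KO replicate 2).

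Of 24 Notch pathway genes 17 lay below the median gene (median -0.86, and -0.32 without KO replicate 1), among them Notch1 at 137 and 220.4 in WT and 82.03 and 43.3 in KO (change -1.44, SE 0.71). DNA methylation and Polycomb genes had 15 of 21 below and a median of -0.95, which came to -0.01 without KO replicate 2; Ezh2, the Polycomb methyltransferase, read 405 and 1245 in WT and 825 and 9.23 in KO, and its change of -2.91 turned to 0.08 without that array. Phc2 of Polycomb complex 1 was the member with an unadjusted p under 0.05, at 2.16 (SE 0.93, and 1.34 without KO replicate 2), with -0.64 on its other probe. Dnmt3a, the methyltransferase that limits HSC self-renewal, stood at -0.83 (SE 0.65), both KO arrays below both WT arrays, while its other probes gave 0.52 and 1.91. Immediate early genes had a median of 0.07 (range 0.04 to 0.26), with 9 of 20 (45%) above WT on both KO arrays and 1 (5%) below, against 33.7% and 12.7% of all genes. Fos read 2.05 and 2.63 in WT and 35.8 and 903 in KO, at least 25.1-fold higher in KO by the group mean but far apart on the KO arrays, and Egr3 read 92.6 and 154 in WT and 541 and 528 in KO (change 2.27, SE 0.74). Junb, by signal among the brightest of these genes, stood at -0.12 (SE 0.66), and turned to 0.13 without KO replicate 1. The 32 lists together held 841 genes tested, each counted once, of which 19 (2.26%) were higher and 15 (1.78%) lower at an unadjusted p under 0.05, against 5.33% and 2.39% of all genes tested. These shares are not matched for level. Of all genes, 729 of the 1220 higher and 152 of the 547 lower were in the dimmest level group, and 31 and 82 in the brightest. Of the 841 list genes, 774 were well above background on all 4 arrays.

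Detection gave a reading that does not use the fold change. Well above background on both KO arrays and on no WT array were 527 genes (2.30%), and on both WT arrays and no KO array 107 (0.468%). Discordance within a genotype was more frequent: 1266 genes were well above background on both KO arrays and 1 WT array, and 1313 on both WT arrays and 1 KO array. Of the 527, 174 were at least 10-fold higher in KO, and of the 107, 31 were at least 10-fold lower. From the 32 lists, Tek, Bmpr1a, Fos, Retnlg, Prkdc, Il1rl1 and Rag2 were among the 527 and Decr1 among the 107. These list genes entered the test through the brighter genotype alone. Their separation is thus a description, also where an unadjusted p is mentioned above.

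Whether the difference between the genotypes in secondary recipients is another than in primary recipients was asked in a fit of all 8 arrays. The interaction of genotype and recipient passed for 0 of 22914 genes (0%) in limma, with a lowest adjusted p of 0.9998, and 864 (3.77%) had an unadjusted p under 0.05. Ly6a, well above background on all 8 arrays, had a KO against WT change of -5.24 in primary and -3.41 in secondary recipients. For Ccnd2, not well above background on 1 of the primary KO arrays, it was -7.32 and -2.14. Replicate 2 of the primary recipients had 41.9% (WT) and 35.4% (KO) of its spots well above background, against 74.0% and 72.2% for replicate 1. None of these differences between the recipients was called.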

How the data were processed

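Scanner files of one-colour Agilent arrays (design 014868) were deposited with a background-subtracted processed intensity per spot, for which the file headers name Agilent's software, version 10.5.1.1. The deposited series matrix holds the ratio of that intensity to the array's own median and served as an alternative. Control spots and outlier spots were left out, spots of a probe averaged and log2 intensities scaled to each array's 75th percentile. Probes were named through RefSeq accessions of GRCm38.p6; positions are those of the files (mm8). A gene was represented by its brightest probe. The 4 secondary arrays were fitted with limma 3.58.1 in R 4.3.3 (lmFit, eBayes, 2 residual degrees of freedom), with Benjamini-Hochberg adjustment over all genes tested, after a check on simulated data. The array number limits the precision. Named genes are Tcf3, the 12 of lowest p and, among genes measured on all arrays, the 10 of widest gap per direction (clone-style names left out), key genes of each list and its 2 highest and 2 lowest members; others are marked in the text or fall in a count that is listed whole. The members and the 32 lists (892 of 906 entries matched) were chosen with earlier results of these data known. Single members of some lists are counted but not reported here by name. Promoters are RefSeq sequence. The 15 alternatives tried cover the fit, background correction, scaling, the filter on dim probes, the choice of probe, the replicate number as a block and each array left out.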

Additional observations from a re-analysis of the deposited data

How the results depend on the processing

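The alternatives that kept all 4 secondary arrays passed 0 genes for KO against WT in limma, as the reported fit did. Their lowest adjusted p lay between 0.394 (median scaling with the deposited ratios) and 0.710 (no filter on dim probes). The genes higher in KO at an unadjusted p under 0.05 numbered 1220; quantile normalization gave 716, and leaving out 1 array gave 703 to 1736. Those lower numbered 547; quantile normalization gave 833, median scaling with the deposited ratios 903 and a test of every probe 844, and leaving out 1 array gave 347 to 2022. The cause was not tested. The replicate block gave 1102 and 580 and changed no call; the deviations of same-numbered arrays correlated at 0.0131, so the numbers were not taken to pair the arrays. The interaction passed 0 genes under the alternatives that apply to it and kept all 8 arrays. Of the 262 genes named by the rule, 37 turned sign without KO replicate 2, 17 without KO replicate 1, 25 without WT replicate 1, 19 without WT replicate 2 and 30 when the gene's probes were averaged. Of the 22875 genes tested, 19662 were well above background on all 4 arrays; for the others at least 1 of the signals behind a change was not.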
